A study of Mus musculus with 12 samples.

Results

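The response of RUNX1-deficient splenic B cells to 3 h of activation was examined by comparing 3 RNA-seq libraries of activated Runx1 c-k/o cells with 3 libraries of resting Runx1 c-k/o cells. These are 6 of the 12 libraries of the series, chosen by genotype and time from their labels, and the response was described over all genes. The other 6 libraries came from control B cells at the same times, again with 3 replicates each.

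All mice were 8 weeks old on a C57B6 background. The c-k/o mice carried Runx1 alleles with LoxP sites around exon 4 (Runx1 fl/fl) and a Cd23-Cre transgene, which is active in B cells from the transitional stage onward. The controls ("Cre-only") carried the CD23-iCre transgene without the LoxP-flanked Runx1 alleles, so both genotypes shared Cre. Resting B cells were obtained from spleen by negative selection, which removed non-B cells and cells with CD43 on their surface. They were lysed at once (0 h) or after 3 h with anti-IgM, an antibody that cross-links the B cell receptor (BCR), and IL-4, the cytokine that signals through STAT6. No library of cells cultured for 3 h without stimulus was used here, so the effects of stimulus and of culture cannot be told apart.

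RUNX1 is the DNA-binding subunit of a core-binding factor that acts in blood cell development and, in mature B cells, in the control of activation. A resting B cell is small and quiescent, and is held there by factors such as KLF2 and the FOXO proteins. Cross-linking of the BCR turns on calcium, MAPK and NF-kB signalling, after which the cell raises MYC, builds ribosomes, takes up amino acids and prepares to enter the cell cycle.

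Library totals ranged from 14442251 to 23641552 counts, and those of the 6 c-k/o libraries from 14442251 to 17643378. Of 37991 genes in the table, 13538 had enough counts to be tested. All levels below are normalised CPM (a gene's count relative to its library total, on the usual CPM scale, with totals adjusted by the trimmed mean of M values, TMM). Fold changes are log2 values from edgeR's quasi-likelihood fit, each with its standard error (SE), and a gene was called at an adjusted p under 0.05. The limit that a count of 0 allows, 3 counts, was 0.127 to 0.208 CPM. In resting c-k/o cells 10 B cell markers summed to between 17262 and 19249 CPM. The 10 T cell markers summed to 8.14 to 11.2 CPM, and Cd3d, Cd3e and Cd3g among them were too low to be tested. Markers of macrophages and monocytes summed to 418 to 925 CPM in the same libraries, so B cell markers were the highest but not the only ones found. In bulk RNA, fewer cells of a type and less RNA per cell cannot be told apart.

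Runx1 itself was at 101, 95.7 and 103 CPM in resting c-k/o cells and at 47.3, 70.6 and 74.5 CPM at 3 h, so the times did not overlap. It fell by 0.64 on the log2 scale (SE 0.14, adjusted p = 9.8e-04). In Cre-only cells it went from 83.6, 81.8 and 86.7 CPM to 38.5, 37.0 and 34.9 CPM, and the difference between the responses did not pass the test (0.55, adjusted p = 0.728). These counts cover the whole gene (chr16:92601712-92826311 of mm9, minus strand), including exons outside the deleted part, so they do not check the deletion.

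Among the c-k/o samples 3 libraries stood apart. The first was resting replicate 2. For 37 genes that rose over 16-fold in Cre-only cells and reached at least 10 CPM, the summed level was 854 CPM in this library, against 235 and 228 CPM in resting c-k/o replicates 1 and 3 and 228 to 236 CPM in resting Cre-only cells. It was the highest resting c-k/o library for 37 of the 37 genes, at a median of 16.4% of the activated Cre-only level. The other resting c-k/o libraries were at 3.23% and 3.06%. The second was 3-h replicate 2. For 138 genes that fell over 16-fold in Cre-only cells, its summed level was 1928 CPM, against 663 and 647 CPM in 3-h c-k/o replicates 1 and 3 and 616 to 666 CPM in Cre-only cells at 3 h. It was the highest 3-h c-k/o library for 137 of these 138 genes. A median of 10.5% of the resting level was left in it, compared with 2.76% and 3.27% in the other replicates. Where leaving out both libraries numbered 2 moved the fold change of a named gene by over 1.5-fold, the value without them is given, and the reason for their position was not tested.

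**Figure D1:**
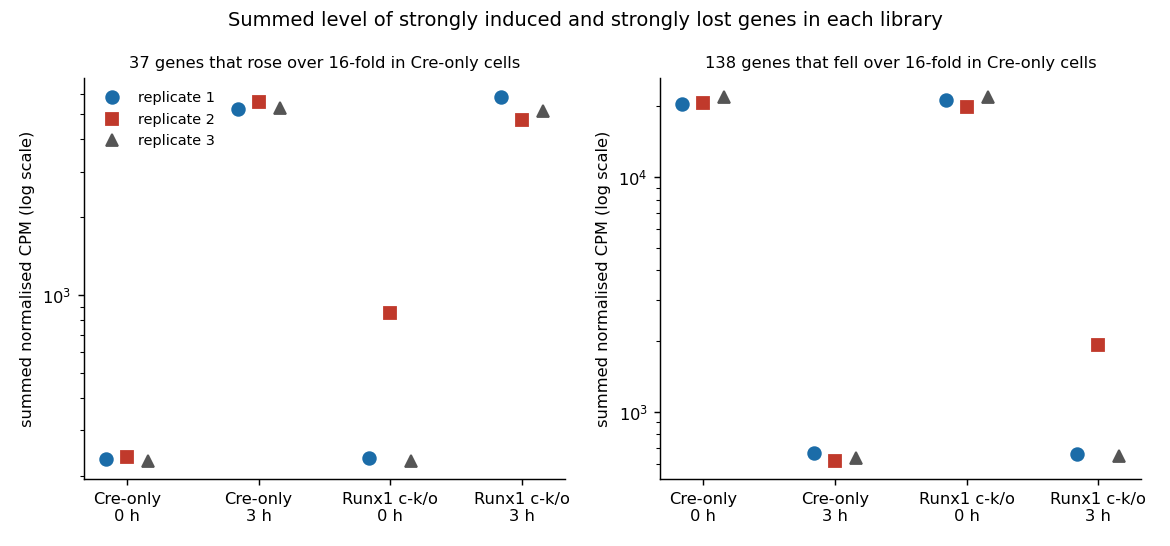
Summed level of 37 strongly induced genes (left) and 138 strongly lost genes (right) in each of the 12 libraries, in normalised CPM on a log axis; the genes were chosen on the Cre-only libraries, and each point is 1 library. Resting c-k/o replicate 2 lies above the other resting libraries on the left (854 CPM), and 3-h c-k/o replicate 2 lies above the other 3-h libraries on the right (1928 CPM).

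The third was 3-h replicate 1, which differed from the other replicates by gene length. Its level against the mean of 3-h replicates 2 and 3 had a median log2 difference of 0.41 over genes with 1000 to 1655 bases of exon and of -0.52 over the longest genes, from 7742 to 116828 bases. Resting replicate 2 showed a smaller gradient, from 0.32 to -0.23 over the same length classes. In the Cre-only libraries no length class deviated by more than 0.05. A value without 3-h replicate 1 is given where a result depends on it, and the cause of the gradient was not tested.

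**Figure D2:**
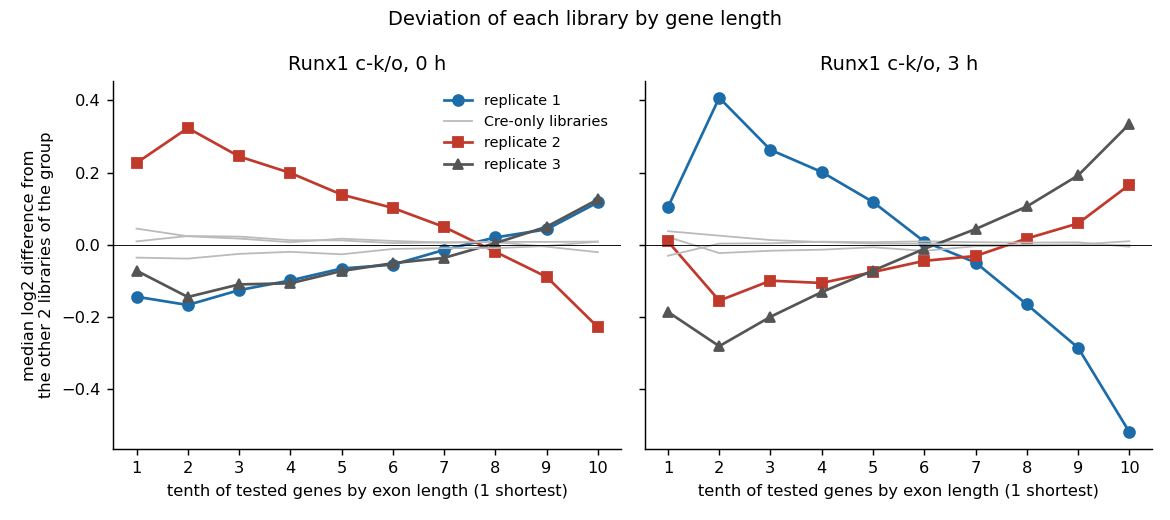
Median log2 difference of each library from the other 2 of its group, over 10 equal classes of 13514 tested genes ordered by exon length (1 shortest), at 0 h (left) and 3 h (right). Coloured lines are the c-k/o replicates and grey lines the Cre-only libraries. The 3-h replicate 1 line runs from 0.41 in class 2 to -0.52 in the last, while the grey lines stay near 0.

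The spread between replicates was larger in c-k/o cells, and largest at 3 h. The median SD of log2 CPM over the tested genes was 0.262 among the 3-h c-k/o libraries and 0.196 among the resting ones, against 0.0988 and 0.0964 in Cre-only cells at 3 h and 0 h. Of all tested genes, 55.7% had their widest spread in the 3-h c-k/o group and 25.6% in the resting c-k/o group. Between 3-h replicates 1 and 2, 12.5% of genes differed over 2-fold, between 1 and 3 it was 11.3%, and between 2 and 3 it was 6.12%. The same share was 3.77% to 4.82% between Cre-only libraries at 3 h. With at least 100 counts in every sample (7829 genes), where counting error is small, the median SD was 0.200 in 3-h c-k/o cells and 0.0630 in 3-h Cre-only cells.

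The genes of at least 10 CPM with the widest spread in 3-h c-k/o cells were of several kinds. Lars2, the mitochondrial leucyl-tRNA synthetase, was at 113, 1900.2 and 88.9 CPM in 3-h replicates 1, 2 and 3 and at 86.3, 99.3 and 93.4 CPM at rest. Only replicate 2 was high. The fitted log2 change of 2.91 passed the test (adjusted p = 0.0105) and was 0.13 without that library. The small nuclear RNA 7SK, the small RNA locus snoU90, the miRNA locus mmu-mir-689-2 and both loci named mmu-mir-2134-4 behaved alike: 7SK was at 1.61, 29.3 and 0.707 CPM and snoU90 at 1.67, 35.2 and 0.471 CPM. All 5 were called as rises with every library in, and the fit without 3-h replicate 2 gave log2 changes from -0.48 (snoU90) to 0.51 (mmu-mir-689-2), none of them called. Without both libraries numbered 2 they ran from -0.35 (snoU90) to 0.65 (mmu-mir-689-2), and Lars2 was at 0.18. In Cre-only cells the highest 3-h level of Lars2 was 157 CPM and that of 7SK was 1.55 CPM. Poly(A) selection was used for these libraries, and snoU90 lies within Kpna4, so its reads may be shared with that gene.

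The widest-spread genes also held Fosb, Fos and Klf4, which fell and of which 3-h replicate 2 kept more, and Gm4759. The last was low in 3-h replicate 1 at 0.708 CPM, against 12.6 and 17.0 CPM in replicates 2 and 3, and stood at 38.9, 10.7 and 46.5 CPM at rest. Its groups overlapped, and the fitted log2 change of -1.66 (adjusted p = 0.038) was not called without 3-h replicate 1 (adjusted p = 0.0759).

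The response to 3 h of activation covered most of the expressed genes. Of 13538 genes, 10062 passed the test (74.3%). Higher at 3 h were 5110 (37.7%) and lower were 4952 (36.6%), with a median log2 change over all genes of 0.00. This balance is in part set by TMM, which scales libraries so that most genes lie near 0. With upper-quartile scaling 4252 genes were higher and 5805 lower, with a median of -0.20. The study added ERCC spike-in RNA to each lysate, but the counts used here held no spike-in. RNA per cell was therefore not measured here. With TMM, changes over 2-fold were found for 2673 genes that rose (19.7%) and 3335 that fell (24.6%). Over 8-fold the numbers were 156 and 715. The 3 activated and 3 resting libraries did not overlap for 9854 genes (72.8%). Without resting replicate 2, 307 genes rose over 8-fold, and leaving out both libraries numbered 2 gave 321 genes that rose and 930 that fell over 8-fold. A fit on the 6 c-k/o libraries alone called 8676 of 12843 genes, or 67.6%. Its median SE was 0.20, against 0.17 in the fit over all samples.

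The 10 largest rises, among called genes whose times did not overlap and that reached at least 10 CPM, included Bcat1, Il2ra and Il7r. Bcat1, the cytosolic branched-chain aminotransferase (chr6:144942355-145024704, minus strand; build mm9), was at 0.820, 9.63 and 0.398 CPM in resting replicates 1, 2 and 3 and at 90.8, 70.9 and 79.6 CPM at 3 h. The groups did not overlap, and the highest resting value was that of replicate 2. The log2 change was 4.49 (SE 0.66, adjusted p = 5.5e-05), and 7.09 without the libraries numbered 2. Other genes overlap this locus, and reads could be shared with them.

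Il2ra, the alpha chain of the IL-2 receptor (chr2:11564419-11614818, plus strand), went from 4.69, 39.4 and 4.05 CPM to 304, 296 and 353 CPM. Every 3-h library was above every resting one. Its log2 change of 4.31 (adjusted p = 7.5e-05) became 6.24 without the libraries numbered 2. Il7r, the IL-7 receptor chain whose level in B-lineage cells is highest in progenitors, rose from 1.82, 11.5 and 1.26 CPM to 92.5, 76.4 and 104 CPM, a log2 change of 4.23. Slc1a4, a neutral amino acid transporter, rose from 1.41, 12.4 and 0.995 CPM to 90.6, 81.4 and 86.0 CPM, a log2 change of 4.13. Chac1, which degrades glutathione, rose from 0.234, 4.59 and 0.531 CPM to 36.4, 31.4 and 26.3 CPM, a log2 change of 4.15. In each of these genes resting replicate 2 held the highest resting value, and without the libraries numbered 2 the change was larger (5.99 for Il7r, 6.19 for Slc1a4 and 6.37 for Chac1). The other genes among the 10 largest rises were Fibcd1 (4.26), Mfsd2a (4.18), a lysophospholipid transporter, Mreg (4.15), Pmepa1 (4.15) and Tbc1d30 (4.14). Without the libraries numbered 2 these were at 6.21, 5.94, 5.83, 5.63 and 5.37, in the same order.

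The largest falls included transcription factors of the immediate early kind that were abundant in resting cells. Fosb, a partner in the AP-1 complex (chr7:19888070-19895394, minus strand), was at 2427, 1696 and 2317 CPM at rest and at 7.21, 123 and 4.24 CPM at 3 h. The times did not overlap, and replicate 2 was the highest at 3 h. The log2 change was -5.59 (SE 1.00, adjusted p = 2.6e-04), and -8.69 without the libraries numbered 2. Fos, the founding AP-1 member (chr12:86814840-86818223, plus strand), fell from 692, 666 and 859 CPM to 5.60, 45.1 and 3.89 CPM, a log2 change of -5.35. Klf4, which restrains B cell proliferation, fell from 702, 580.4 and 698 CPM to 4.89, 41.5 and 4.48 CPM, a log2 change of -5.29. Icosl, the ligand of the T cell costimulator ICOS, fell from 298, 239 and 287 CPM to 2.96, 17.9 and 3.71 CPM, a log2 change of -5.08. For these genes the 3-h level in replicate 2 was several times that of the other replicates, and every 3-h value was still below every resting one. Without the libraries numbered 2 the log2 change was -7.35 for Fos, -7.21 for Klf4 and -6.44 for Icosl.

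Also among the 10 largest falls were Hist1h1c (-5.14), a linker histone, Cacna1i (-5.03), a calcium channel subunit, and the inducible heat shock genes Hspa1a (-5.01) and Hspa1b (-4.99). The heat shock pair are near-identical copies, so their counts are uncertain. They varied widely at rest in both genotypes: Hspa1b was at 234, 84.3 and 121 CPM in c-k/o and at 40.6, 161 and 285 CPM in Cre-only cells. With limma-voom and a weight for each group neither was called. The remaining members were Gm15408 (-5.58) and Gm15674 (-5.12), which overlap other annotated genes. Without the libraries numbered 2 the changes were -6.15 for Hist1h1c, -6.56 for Cacna1i, -6.16 for Hspa1a, -5.81 for Hspa1b, -7.51 for Gm15408 and -6.80 for Gm15674.

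**Figure D3:**
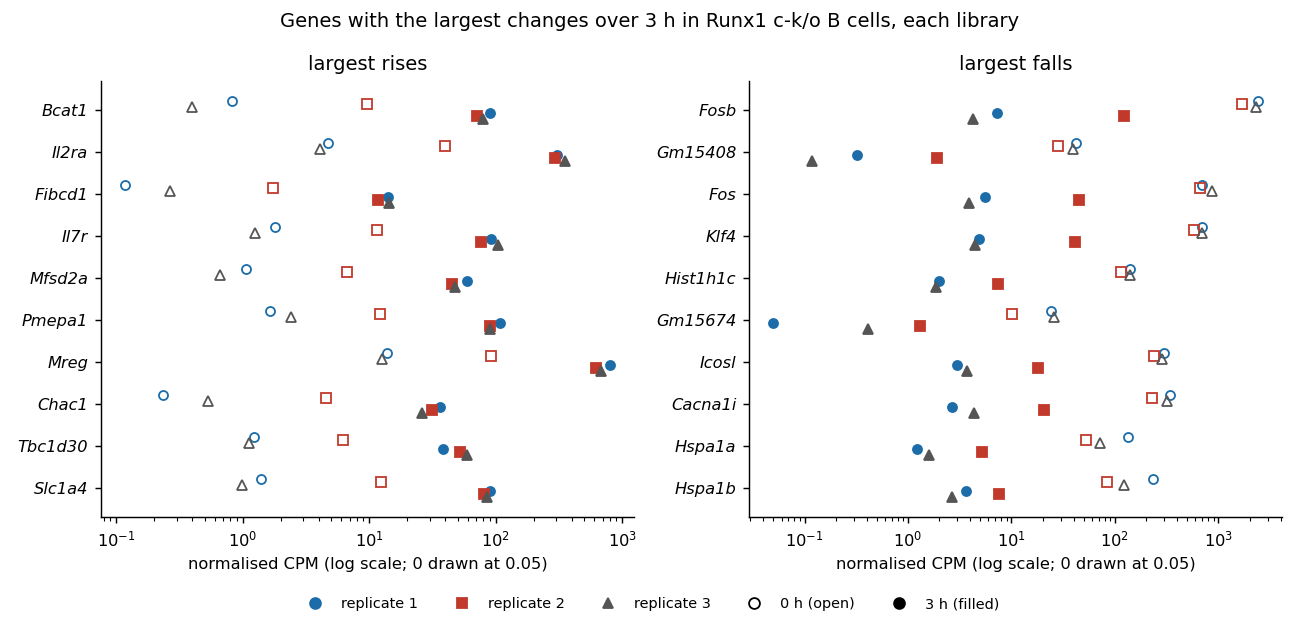
Normalised CPM (log axis) of the genes with the largest rises (left) and falls (right) over 3 h in Runx1 c-k/o cells; open symbols are resting and filled symbols 3-h libraries, with 1 symbol shape per replicate. Resting replicate 2 sits above the other resting libraries in most rising genes (Il2ra, 39.4 CPM), and 3-h replicate 2 sits above the other 3-h libraries in most falling genes (Fosb, 123 CPM).

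Genes were then grouped in 29 lists by function. The lists are compared with all tested genes, of which 37.7% rose and 36.6% fell. The counts of each list are a description. A split near these shares is not read as a property of a list.

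Genes of ribosome production rose together. All 59 genes of ribosome biogenesis were called and higher at 3 h, with a median log2 change of 2.19. The smallest change was 1.20 (Ltv1). Rrp1b, a nucleolar protein, rose from 26.9, 60.5 and 27.1 CPM to 284, 296 and 344 CPM, and Nop16 from 13.5, 36.8 and 15.7 CPM to 214, 144 and 143 CPM. Resting replicate 2 was the highest resting library in both, and neither gene's times overlapped. The log2 changes were 3.01 for Rrp1b and 2.93 for Nop16, and the latter was 3.62 without the libraries numbered 2.

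Of 20 aminoacyl-tRNA synthetases, which load amino acids onto tRNAs, 18 rose and 1 fell, with a median of 2.07. The leading members were Yars (2.77) and Iars (2.72), and the fall was that of Vars (-0.24, adjusted p = 0.0303). It was not called without resting replicate 2 (-0.20) or 3-h replicate 2 (-0.20). Among 35 translation initiation factors, 29 rose and none fell, led by Eif4ebp1 (2.43), an inhibitor of cap-dependent translation, and Eif5a (2.36).

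The genes of the ribosomal proteins themselves moved little. Of 78 cytosolic ribosomal protein genes, 10 rose and none fell, a share below that of all tested genes, with a median of 0.14. The count depended on 1 library: the median log2 level against the resting mean was 0.63 in 3-h replicate 1, and -0.07 and -0.20 in 3-h replicates 2 and 3. Without replicate 1, 5 rose and 22 fell, and with both libraries numbered 2 left out 29 rose and none fell. Rps2 was at 765, 1143 and 796 CPM at rest and at 2007, 1237 and 1122 CPM at 3 h. Its times overlapped, and the log2 change was 0.69 with all libraries and 0.38 without replicate 1. The direction of this family was not settled: its median was -0.06 with upper-quartile scaling.

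Energy and building blocks were next. Of 57 subunits of oxidative phosphorylation, 43 rose and none fell, with a median of 0.63. Here too 3-h replicate 1 was highest, with a median of 1.01, against 0.40 and 0.42 in the others, and without it 37 rose and 2 fell. Cycs, cytochrome c, rose from 36.1, 57.8 and 35.8 CPM to 225, 137 and 144 CPM. Of 20 genes of glycolysis, 14 rose and 4 fell. Ldha, which makes lactate (log2 change 2.61), and Hk2, a hexokinase (2.55), were the leading rises (Ldha by 3.22 without the libraries numbered 2), while Pfkm (-1.74) and Pfkfb4 (-1.58) fell. Of 35 genes of nucleotide synthesis and one-carbon metabolism, 31 rose and 4 fell, with a median of 1.68. Mthfd2, a mitochondrial folate enzyme, went from 11.2, 49.8 and 11.5 CPM to 357, 256 and 265 CPM, and its times did not overlap. Its log2 change was 3.60, followed by 3.31 for Srm, spermidine synthase. They were 4.78 and 4.24 without the libraries numbered 2. The falls included Rrm2 (-1.38), a subunit of the enzyme that makes DNA precursors.

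In the list of 23 genes of cholesterol synthesis, 22 rose and none fell, with a median of 2.23. Idi1 rose from 5.97, 22.3 and 6.04 CPM to 154, 147 and 168 CPM (log2 change 3.78), and Sqle, squalene epoxidase, by a log2 value of 3.51. Of 15 genes listed as transporters of amino acids and glucose, 11 rose and 1 fell. The rises were led by Slc1a4 and by Slc19a1 (3.50), which is a folate carrier. The fall was in Slc2a3 (-0.59), a glucose transporter. Without the libraries numbered 2 the rises were 4.75 for Idi1, 4.53 for Sqle and 4.27 for Slc19a1. Chaperones rose in 27 of 33 cases and fell in 4, with a median of 1.30. The cytosolic chaperonin subunit Cct3 was an example (2.09), while Hspa1a and Hspa1b fell. Of 39 proteasome subunits 36 rose and 2 fell. The 2 falls were Psmb8 (-0.72) and Psmb10 (-0.74), which are among the catalytic subunits of the immunoproteasome. Psmd7, a regulatory subunit, rose by a log2 value of 2.04.

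Targets of ATF4, the transcription factor of the amino acid and stress response, rose in 16 of 18 cases, with 1 fall and a median of 2.34. Trib3, a pseudokinase, went from 0.937, 8.01 and 0.995 CPM to 66.8, 42.2 and 45.6 CPM, a log2 change of 3.97, and of 5.86 without the libraries numbered 2. The fall was in Ppp1r15a (-1.79), which reverses the block of translation in the stress response. Promoter stretches of 4 genes are shown because the members of these 2 lists moved together. They are from RefSeq on GRCm38.p6, and 8817 of the 13538 tested genes had a promoter there, from 250 bases before the start to 50 after it. Asns, Pycr1 and Nop2 were named for their sequence, after their values were seen. Capitals mark the match, on either strand, to TGATGNAA in the first 3 and to CACGTG, the E-box bound by MYC and related factors, in the last; Chac1 carries the reverse complement.
Chac1 (chr2:119351009-119351096, plus strand): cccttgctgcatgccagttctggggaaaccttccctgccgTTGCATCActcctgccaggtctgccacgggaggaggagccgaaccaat
Pycr1 (chr11:120643804-120643891, minus strand): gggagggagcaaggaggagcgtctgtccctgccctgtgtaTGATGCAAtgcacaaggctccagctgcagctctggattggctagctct
Asns (chr6:7693210-7693272, minus strand): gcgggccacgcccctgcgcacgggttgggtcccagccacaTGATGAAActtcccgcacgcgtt
Nop2 (chr6:125131783-125131868, plus strand): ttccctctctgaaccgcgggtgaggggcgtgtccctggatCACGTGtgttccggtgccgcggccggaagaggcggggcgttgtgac

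The first base of the match lay 193, 103 and 23 bases before the start in Chac1, Pycr1 and Asns, and 60 bases before it in Nop2. TGATGNAA was in the promoters of 4 of 18 ATF4 targets (22.2%), those 3 and Trib3, and in 204 of all 8817 (2.3%). CACGTG was in 11 of 51 ribosome biogenesis promoters (21.6%), and in 926 of all 8817 (10.5%). For STAT6, the palindrome of TTC and GAA with 4 bases between was in 1 of 18 promoters of the IL-4 list (5.6%), and in 462 of all (5.2%). For CREB, TGACGTCA was in 0 of 23 promoters of immediate early transcription factors, and in 294 of all (3.3%). Of the genes with a printed sequence, Asns, asparagine synthetase, rose from 1.17, 5.88 and 0.796 CPM to 40.6, 34.6 and 27.0 CPM. Pycr1, an enzyme of proline synthesis, rose from 1.05, 4.52 and 1.73 CPM to 30.4, 24.7 and 27.7 CPM. Nop2, a methyltransferase of ribosomal RNA, rose from 35.7, 79.0 and 33.7 CPM to 402, 313 and 341 CPM. All 3 were highest at rest in replicate 2, and none overlapped between times.

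The IL-4 and STAT6 list had 19 tested members, of which 13 rose and 1 fell, with a median of 1.92. Cish, a cytokine-induced inhibitor of STAT signalling, went from 1.93, 19.1 and 2.39 CPM to 115, 127 and 126 CPM. Again only resting replicate 2 stood above the other resting libraries. The log2 change was 3.98 (SE 0.61, adjusted p = 7.0e-05), and 5.81 without the libraries numbered 2. Socs1, an inhibitor of the same kind, rose by 3.40 on the log2 scale, and by 4.09 without them. The single fall was that of Bcl6, a repressor needed by germinal center B cells, from 115, 97.1 and 113 CPM to 22.1, 33.4 and 27.3 CPM (log2 change -1.97).

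Signalling genes went in both directions. Of 30 immediate early transcription factors, 11 rose and 14 fell, with the rises near the share of all tested genes. Fosl1 (3.28) and Batf (3.17) rose, both AP-1 family members like the falling Fos and Fosb. Among 34 feedback inhibitors of MAPK and NF-kB signaling, 13 rose and 14 fell, shares near those of all tested genes. The largest rises in this list were those of Cish and Socs1, the inhibitors of STAT signalling named above. The MAPK phosphatases Dusp1 (-4.73) and Dusp6 (-3.17) fell. Dusp1 went from 319, 353 and 387 CPM to 6.89, 28.0 and 5.18 CPM, with 3-h replicate 2 again the highest. The change was -5.86 for Dusp1 and 4.09 for Batf without the libraries numbered 2. Components of BCR signaling fell in 31 of 48 cases and rose in 9, with a median of -1.06. Rasgrp2, an activator of RAP1, fell from 259.8, 225 and 255 CPM to 6.50, 22.0 and 5.95 CPM (log2 change -4.43), with no overlap between times. The rises were led by Orai1, the calcium channel of store-operated entry (2.64), and Fyn, a SRC family kinase (2.17). Rasgrp2 was at -5.36 and Orai1 at 3.31 without the libraries numbered 2.

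Quiescence factors fell in 24 of 34 cases and rose in 4, with a median of -1.73. Klf2, which holds lymphocytes in quiescence, was at 1164, 1158 and 1152 CPM at rest and at 29.6, 82.5 and 15.7 CPM at 3 h. The resting libraries lay close together, and replicate 2 was the highest at 3 h. The log2 change was -4.77 (SE 0.47, adjusted p = 1.9e-06). Tsc22d3 (GILZ), an inhibitor of AP-1 and NF-kB, fell from 1745, 1630.2 and 1636 CPM to 65.4, 138 and 39.4 CPM (-4.37). The changes were -5.67 for Klf2 and -5.00 for Tsc22d3 without the libraries numbered 2. Il7r and Slfn2 (2.46), both also in that list, rose.

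Receptors of homing and egress fell in 15 of 23 cases and rose in 5. Itgb7, an integrin chain of gut homing, fell by 4.37 on the log2 scale, and by 5.08 without the libraries numbered 2. Ccr9 (2.70) and S1pr3 (1.99) rose. Surface markers of activation had 11 rises and 8 falls of 20, with the falls near the share of all tested genes. Il2ra rose and Icosl and Cd24a (-2.90) fell. Tnfrsf9 (4-1BB) rose as well, with 0.117, 0.388 and 0.0664 CPM at rest, at or below 6 counts a library, and 3.99, 3.41 and 2.89 CPM at 3 h. Of 15 chemokine and cytokine genes, 7 rose and 6 fell, shares not far from those of all tested genes. Ccl22 rose from 0.586, 4.65 and 0.730 CPM to 19.9, 16.5 and 19.8 CPM and Ccl4 by a log2 value of 2.58. The log2 change of Ccl22 was 3.25, and 4.92 without the libraries numbered 2. Ltb, lymphotoxin beta, fell by 4.15, and Il12a by 3.47, on the log2 scale.

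Genes of antigen presentation by MHC class II showed 4 rises and 6 falls among 14, shares not far from those of all tested genes. H2-Oa (-2.14) and H2-Ob (-1.63), the subunits of the peptide-loading modulator DO, fell. H2-Eb2 (1.08) and H2-Eb1 (0.74) rose. H2-Eb1 was at 3130.4, 4214 and 3082 CPM at rest and at 7724, 4909 and 4815 CPM at 3 h, highest in replicate 1. In the list of lysosome and V-ATPase genes, 15 of 38 rose and 11 fell, shares not far from those of all tested genes. V-ATPase subunits led the rises (Atp6v1c1 by 1.22 and Atp6v1h by 1.12 on the log2 scale), and the lysosomal protease Ctsh (-2.05) was among the falls.

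Of 25 genes for G1 cyclins, CDKs and inhibitors, 9 rose and 12 fell, with the rises near the share of all tested genes. Ccnd2, cyclin D2, was at 112, 182 and 104 CPM at rest and at 778, 965 and 1222 CPM at 3 h, and Cdk4, its kinase, went from 73.0, 141 and 80.6 CPM to 549, 374 and 389 CPM. Neither overlapped between times. The log2 changes were 2.90 (SE 0.22) and 2.15 (SE 0.22). E2f2 (-3.88) and Cdkn2d (-3.07), an inhibitor of CDK4, fell. Of 40 genes of DNA replication, 21 rose and 11 fell, and this became 15 and 15 with upper-quartile scaling. Pold2 (1.79) and Orc2 (1.66) rose, while Pold1 (-1.70) and Rfc1 (-1.19) fell. Of 40 genes of mitosis and the spindle 20 fell and 2 rose, and without both libraries numbered 2 the falls were 13. Cdc25b, the phosphatase that starts mitosis, fell from 133, 118 and 129 CPM to 4.70, 11.7 and 4.36 CPM (log2 change -4.20, and -4.84 without the libraries numbered 2), and the centromeric histone Cenpa also fell (-2.88). The rises, of Cdc20 (0.53) and Prc1 (0.40), were small, and that of Prc1 was not called without 3-h replicate 2.

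In the BCL2 family 7 of 14 rose and 5 fell, shares not far from those of all tested genes. Bcl2 fell from 161, 131 and 157 CPM to 9.20, 19.9 and 10.7 CPM (log2 change -3.50), and Bcl2l1 (BCL-XL) rose from 6.21, 21.3 and 7.17 CPM to 149, 97.8 and 106 CPM (3.35). Both genes protect from cell death, and their times did not overlap. Bcl2a1d rose (2.83), with uncertain counts since the Bcl2a1 genes are near-identical copies, and the pro-death Bmf fell (-3.40). Without the libraries numbered 2 the changes were 4.26 for Bcl2l1, 3.72 for Bcl2a1d and -4.003 for Bmf. Targets of p53 had 9 rises and 9 falls of 21, shares not far from those of all tested genes. Gadd45b (2.44) and Aen (2.40) were the leading rises and Plk2 (-3.83) and Sesn1 (-3.43) the leading falls.

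Interferon-stimulated genes fell in 29 of 50 cases and rose in 10, with a median of -0.58. The median of the list against the resting mean was -1.13, -0.53 and -0.39 in 3-h replicates 1, 2 and 3. Gbp3 fell from 62.3, 54.6 and 60.1 CPM to 4.51, 8.53 and 3.42 CPM (log2 change -3.43) and Gbp2 by 2.73 on the log2 scale. Irgm2 (1.04) and Ifi47 (0.91), both interferon-inducible GTPases, rose. In Cre-only cells 39 of these genes fell and 3 rose, with a median of -1.47. The difference between the genotypes over the list as a whole was not tested. The member Zbp1, a sensor of nucleic acids, passed the test of the difference.

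**Figure D4:**
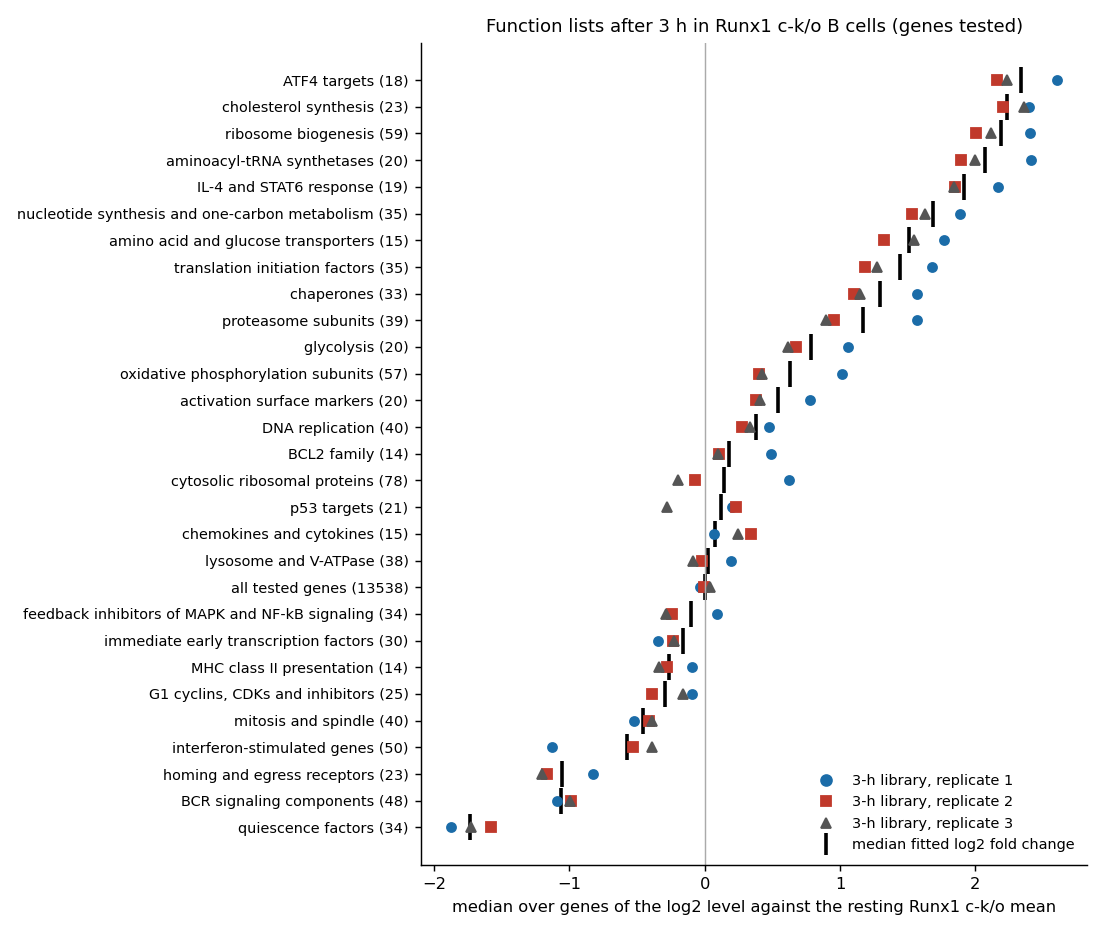
Median log2 level of each function list in the 3-h c-k/o libraries against the resting c-k/o mean (symbols, 1 per replicate), with the median fitted log2 change as a vertical tick; the number of genes tested is in parentheses. Lists of ribosome biogenesis, cholesterol synthesis and ATF4 targets lie to the right (medians 2.19, 2.23 and 2.34), quiescence factors to the left (-1.73), and replicate 1 lies to the right of the others for ribosomal proteins (0.63).

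A set of 21 genes was taken from those that the study examined one by one, some by PCR and others in its RNA-seq or other data. Of these, 7 rose and 11 fell, against 37.7% and 36.6% of all tested genes, so the rises were near the general share. Besides Ccnd2, the rises were Fosl2 (3.00), Egr2 (2.96), Rbpj (1.95), Myc (1.73), Tnfrsf13c, the BAFF receptor (1.11), and Skp2 (0.84). Myc went from 293, 500.2 and 343 CPM to 1475, 1119.7 and 1183 CPM. Skp2 was the tightest, at 3.87, 3.81 and 3.78 CPM and then 6.89, 6.82 and 6.83 CPM. Besides Bcl2 and Runx1, the falls were Cd22 (-2.82), an inhibitory co-receptor, Notch2 (-2.17), Atf3 (-2.11), Ccne1 (-1.76), Bank1 (-1.59), Lgals9 (-1.54), Trib1 (-0.92), Ifnar1 (-0.40) and Runx3 (-0.29, adjusted p = 0.036). Those that did not pass were Ptpn22 (0.21, adjusted p = 0.0864), Psen2 (-0.19, adjusted p = 0.0788) and E2f1 (0.11, adjusted p = 0.52). Runx3 was not called without 3-h replicate 1 (adjusted p = 0.0988), while Psen2 was (adjusted p = 0.00205), as was Ptpn22 (adjusted p = 0.0373). The study chose these genes with its own data in view, so their directions are not independent evidence.

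Genes listed as markers of other cells moved with time as well, and which cells they came from was not tested. All 10 tested markers of macrophages and monocytes, of 11, fell in c-k/o cells, with a median log2 change of -3.37. Their summed level was 418 to 925 CPM at rest and 40.8 to 106 CPM at 3 h, and in Cre-only cells it was 473 to 603 CPM and 31.5 to 45.2 CPM. Csf1r was at 139, 283 and 238 CPM at rest and 5.99, 26.5 and 8.36 CPM at 3 h, highest in replicate 2 at both times. The part of these cells in the genes that fell was not tested. Markers of T cells were at 8.14 to 11.2 CPM in sum at rest and 2.82 to 7.21 CPM at 3 h, those of NK cells at 10.3 to 12.2 and 2.47 to 5.99 CPM, and those of neutrophils at 0.905 to 5.62 and 0.459 to 3.41 CPM. Of these lists 1 of 4, 4 of 7 and 0 of 4 tested genes fell, and none rose. Other lists did hold rises. Of 7 tested dendritic cell markers 2 rose and 4 fell, and of 7 erythroid markers 1 rose and none fell. The dendritic rises were Zbtb46 and Bst2. The erythroid rise was Tfrc, from 256, 220 and 223 CPM to 545, 496 and 599 CPM. In the same list the globin gene Hbb-b1 was at 180, 231 and 288 CPM and then at 149, 84.3 and 124 CPM. Marginal zone markers had 4 rises and 3 falls of 8, plasma cell markers 2 and 2 of 5, and germinal center markers 1 and 1 of 6. Of all tested genes 37.7% rose and 36.6% fell, and a split near these shares is not read as a property of a marker list. The T cell falls were 4 without 3-h replicate 1, and the NK cell falls 2 without 3-h replicate 2. Among markers of stroma or endothelium only Pecam1 and 1 other gene were tested, and both fell. Pecam1 made up 300.0, 266 and 299 CPM of 270 to 303 CPM at rest. In the same resting libraries Cdh5 was at 1.93, 2.07 and 1.59 CPM and Kdr at 0.351, 0.0646 and 0.133 CPM. B cell markers fell in 7 of 10 cases, and their summed level went from between 17262 and 19249 CPM to between 8319 and 9192 CPM.

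Finally, the response was compared with that of Cre-only cells, which shares no library with it. In Cre-only cells 10159 genes were called (75%), 227 of them rising and 791 falling over 8-fold. The fit over all samples gave each gene 1 dispersion for all groups, although the c-k/o libraries spread more widely. With each genotype fitted alone, 67.6% of 12843 genes were called in c-k/o and 84.0% of 12986 in Cre-only cells. With limma-voom and a weight for each group the shares were 64.9% and 83.5%. The near-equal shares of calls thus depended on the shared dispersion. Across the 13538 genes the log2 changes of the genotypes had a Pearson r of 0.962 and a slope of 0.898, c-k/o on Cre-only; genes are not independent replicates. In the fit over all samples both responses called 9344 genes, which were 92.9% of the c-k/o calls and 92.0% of the Cre-only calls. Of these 9339 had the same direction, and in 5365 of those the change was smaller in c-k/o cells. These comparisons of size turned with the libraries numbered 2. Without resting replicate 2, 307 genes rose over 8-fold in c-k/o and 238 in Cre-only cells, and the change was smaller in c-k/o cells for 3902 of 9389 genes. Without both libraries numbered 2, 321 rose and 930 fell over 8-fold in c-k/o cells against 232 and 812 in Cre-only cells, the slope was 1.05, and 2956 of 9278 genes changed less in c-k/o cells. The test of the difference itself (the interaction of genotype and time) called 11 genes (0.0813%), 9 with a more positive (0.0665%) and 2 with a more negative (0.0148%) change in c-k/o cells. At an unadjusted p under 0.05 there were 686. The number of calls depended on single libraries: it was 17 without resting c-k/o replicate 2, 31 without 3-h replicate 1 and 5 without 3-h replicate 2. With a replicate block within each genotype it was 4, of which 3 were among the 11. With DESeq2 it was 79 and with 1 RUVs factor (a term for unwanted variation estimated from replicates) 142, and both sets held all 11. The study itself used DESeq2 together with factors from RUV-seq, and that combination was not fitted here. The RUVs factor was estimated over all tested genes, most of which changed with time, so it may hold part of the response. The median SE of the difference was 0.24 on the log2 scale, so small differences were not detectable with these libraries.

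**Figure D5:**
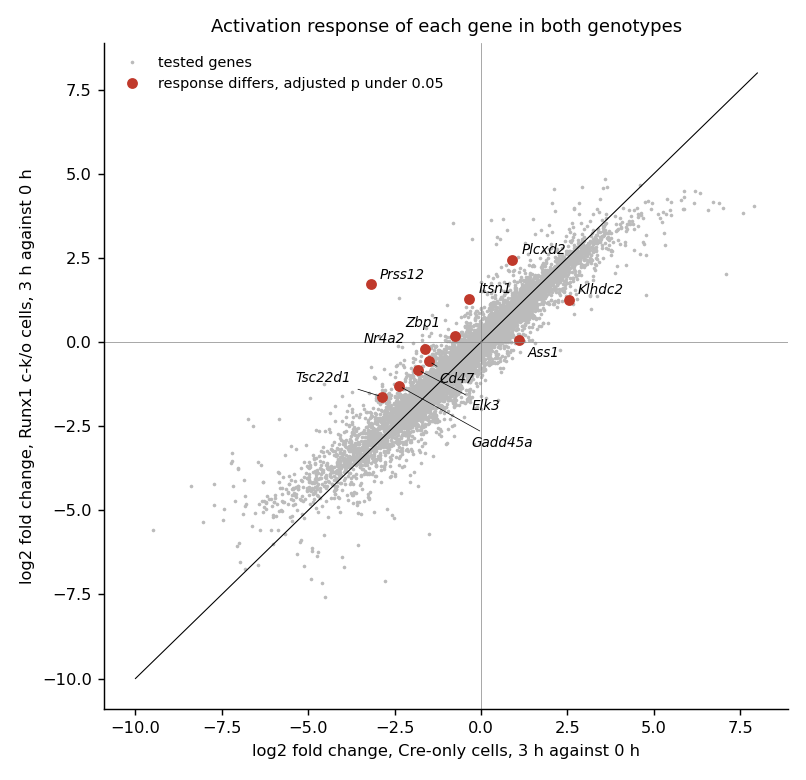
Log2 fold change of each of 13538 tested genes over 3 h in Cre-only cells (x axis) and Runx1 c-k/o cells (y axis). Grey points are genes, and the 11 red, named points are those whose response differed between genotypes at an adjusted p under 0.05; most genes lie near the diagonal (r = 0.962).

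Tsc22d1 and Nr4a2 were called under each of the 16 alternatives. Itsn1, Elk3 and Cd47 were not called with the replicate block (adjusted p = 0.0709, 0.26 and 0.26), nor were Gadd45a and Klhdc2, which also missed the threshold without 3-h replicate 2 (adjusted p = 0.0503 for both). Plcxd2 was called with the block but not under 5 other alternatives. Prss12, Ass1 and Zbp1 were not called under 7, 5 and 6 alternatives, the block and the omission of both libraries numbered 2 among them. For Prss12 these include the filter of at least 10 counts in each sample, which removed the gene before testing.

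Itsn1, an endocytic scaffold (chr16:91729526-91920842, plus strand; mm9), rose in c-k/o cells from 21.1, 28.4 and 23.4 CPM to 63.9, 56.0 and 57.9 CPM, and in Cre-only cells went from 28.7, 25.1 and 25.8 CPM to 23.6, 18.9 and 20.6 CPM. Its log2 change was 1.29 in c-k/o cells and -0.33 in Cre-only cells, both called, and the difference was 1.62 (SE 0.18, adjusted p = 0.0072). Nr4a2, an orphan nuclear receptor induced by antigen receptor signals, was at 49.4 to 57.1 CPM at rest and 47.6, 45.0 and 46.1 CPM at 3 h in c-k/o cells (log2 change -0.20, not called, and -0.41 and called with upper-quartile scaling). In Cre-only cells it fell from 45.6, 46.0 and 60.8 CPM to 14.9, 16.9 and 17.6 CPM (-1.63), so all Cre-only 3-h libraries were below all c-k/o ones.

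Genes that fell in both genotypes, by less in c-k/o cells, were Tsc22d1, a transcriptional regulator (-1.62 against -2.87 on the log2 scale), Gadd45a, a stress sensor (-1.30 against -2.37), Elk3, an ETS family repressor (-0.83 against -1.82), and Cd47, the signal that inhibits phagocytosis (-0.57 against -1.51). Gadd45a was at 17.9, 18.0 and 16.1 CPM at 3 h in c-k/o and at 8.20, 6.60 and 7.52 CPM in Cre-only cells, from resting levels of 43.2, 45.1 and 40.2 CPM and 39.8, 37.6 and 38.7 CPM. The resting levels were close and the 3-h levels did not overlap. Zbp1 was at 58.1, 55.6 and 64.0 CPM in 3-h c-k/o cells, after 54.3, 50.6 and 50.3 CPM at rest, and fell in Cre-only cells from 49.6, 47.1 and 46.9 CPM to 29.7, 24.8 and 31.5 CPM.

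Klhdc2, a substrate receptor of a ubiquitin ligase, rose less in c-k/o cells (1.26) than in Cre-only cells (2.54), with 73.4, 70.8 and 67.7 CPM against 142, 159 and 179 CPM at 3 h. Ass1, argininosuccinate synthase, was at 28.1, 27.9 and 23.1 CPM in resting c-k/o cells and 12.3, 12.3 and 10.5 CPM in resting Cre-only cells, and at 27.0 to 28.0 CPM and 23.7 to 26.0 CPM at 3 h. Plcxd2 was at 4.16, 5.62 and 5.31 CPM in resting c-k/o cells and 26.6, 31.5 and 30.0 CPM in resting Cre-only cells, and rose by 2.45 and 0.91 on the log2 scale. In both genes the resting levels of the genotypes did not overlap. Elk3 also differed at rest, from 41.1 to 46.0 CPM in c-k/o and from 62.4 to 65.1 CPM in Cre-only cells. Prss12 rested on few reads: resting c-k/o libraries had 2, 1 and 1 counts and 3-h ones 5, 4 and 5, while Cre-only libraries had 37, 19 and 22 counts at rest and 2, 3 and 3 at 3 h. None of the 11 genes was among the 10 largest rises or falls.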

How the data were processed

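Levels came from 1 table of whole-number counts per gene that the authors deposited, with 37991 genes in 12 samples. Per the labels, mRNA libraries were made from poly(A) RNA with a stranded kit, and the submitters' processing notes name CASAVA 1.8.4, TopHat2 2.0.11, featureCounts and the build mm9 (NCBIM37). The strand setting of the counting was not given in the sources used here, so overlapping genes may share reads. Replicates are 3 biological samples per group.

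Counts were filtered (edgeR 4.0.16 filterByExpr, minimum 10) to 13538 genes, scaled by TMM (factors 0.886 to 1.07) and fitted over all 12 samples with robust quasi-likelihood tests and Benjamini-Hochberg adjustment, with 1 mean per group. The contrasts were 3 h against 0 h in each genotype and their difference. Levels are CPM on TMM-scaled libraries; SDs of log2 used a prior count of 1. R 4.3.3 was used, and the model was tested on simulated data. The simulation gave each gene the same dispersion in every group and left 13338 of 13538 genes unchanged. It therefore does not test the model under the unequal spread, or the broad response, of these data. Totals gave a limit of 3 counts for undetected genes, which covers counting error only.

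Named genes were the 10 largest rises and 10 largest falls among called genes without overlap and with at least 10 CPM in the higher group, up to 4 called members of each function list, the 10 widest spreads at 3 h, all genes whose response differed, 21 genes that the study examined one by one, and Runx1. Of 1037 gene entries written in 29 function and 11 marker lists, 1028 matched the table. Members and lists were chosen with earlier results of these data known. Alternatives were other scalings and filters, DESeq2 1.42.0, limma 3.58.1 voom with a weight for each group, 1 factor of unwanted variation estimated from replicates (RUVs), a replicate block, the genotype alone, each c-k/o library left out and, chosen after seeing the data, both c-k/o libraries numbered 2 left out. In Cre-only cells same-numbered samples deviated together (correlations 0.26, 0.16 and 0.13 across genes), as a pairing by number would give. Gene positions are on mm9, and promoters, matched by symbol, are RefSeq's on GRCm38.p6. A few genes that this rule names are not reported here.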

Additional observations from a re-analysis of the deposited data

Results flagged for a closer look

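By the interaction test over all genes, the change over 3 h was not the same in the 2 genotypes for 11 of 13538 genes (edgeR, adjusted p under 0.05). The difference in log2 fold change, c-k/o minus Cre-only, was 1.62 for Itsn1 (adjusted p = 0.0072), 1.24 for Tsc22d1 (adjusted p = 0.0072), 1.42 for Nr4a2 (adjusted p = 0.00814), 1.00 for Elk3 (adjusted p = 0.00814), 0.95 for Cd47 (adjusted p = 0.0116) and 1.07 for Gadd45a (adjusted p = 0.0116). It was 0.93 for Zbp1 (adjusted p = 0.0282) and 1.55 for Plcxd2 (adjusted p = 0.0297). The 2 negative differences were -1.29 for Klhdc2 (adjusted p = 0.0148) and -1.04 for Ass1 (adjusted p = 0.0165). For Prss12 the fitted difference of 4.91 (adjusted p = 0.0148) rests on 1 to 5 counts in each c-k/o library and depends on the prior count. Other annotated genes overlap Cd47, and reads may be shared. With a replicate block within each genotype 4 genes were called, of which Tsc22d1, Nr4a2 and Plcxd2 were among the 11. DESeq2 called 79 and the fit with 1 RUVs factor 142. Why these responses differed was not tested.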

How the results depend on the processing

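The number of genes called in the c-k/o response ranged from 8254 (at least 10 counts in each sample, 10925 genes tested) to 10358 (no filter, 22878 tested), and stayed within 1.5 times of 10062 under every alternative. Leaving out 1 c-k/o library gave 9472 to 10203. Upper-quartile scaling moved the median of all genes to -0.20 (4252 higher, 5805 lower) and library totals to -0.11.

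The number of genes whose response differed, 11, was less stable: 79 with the DESeq2 Wald test, 142 with 1 RUVs factor, and 5 to 31 with 1 c-k/o library left out. In c-k/o cells the correlations of same-numbered samples across all genes (-0.23, -0.25 and 0.23) did not meet the criterion for a pairing, which is over 0.1 in every pair. With a replicate block within each genotype 4 genes differed and 9601 were called in the c-k/o response. Over 120 immunoglobulin V genes, each c-k/o sample correlated best with its own number (0.35, 0.36 and 0.31), as did each Cre-only sample (0.28, 0.20 and 0.39). This is a hint from the data, not the design, that numbers may pair the samples, and a call lost under the block is then not shown to be a smaller difference.

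At 100 counts or more in every sample the median SD was 0.0625, 0.0630, 0.148 and 0.200 for Cre-only 0 h and 3 h and c-k/o 0 h and 3 h, against 0.0964, 0.0988, 0.196 and 0.262 over all genes.

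Direction changed for few named genes. With 1 RUVs factor these were Rps2 (-0.19), H2-Eb1 (-0.018), Ass1 (-0.058), E2f1 (-0.31), Runx3 (0.063) and Gm4759 (1.98, called). Library totals gave -0.062 for Ass1 and -0.010 for E2f1. Upper-quartile scaling gave -0.15 for Ass1, -0.095 for E2f1 and -0.013 for Zbp1. Ass1 was at -0.048 with 10 counts in each sample. With 1 c-k/o library left out, Ass1 ranged from -0.030 (without resting replicate 3) to 0.10, E2f1 from -0.026 (without 3-h replicate 1) to 0.24, and snoU90 from -0.48 (without 3-h replicate 2) to 3.63. Without both libraries numbered 2, snoU90 was at -0.35. The cause was not tested. Over 144 named genes and all alternatives, the call was lost without a change of direction in 86 cases and gained in 12. Depth limits what can be said of genes at a few counts, such as Prss12.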
